A study of Mus musculus with 60 samples.

Results

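The cultures described here are mouse primary cortical neurons that received siRNA against paxillin and no BDNF, sampled at day 3 in vitro (DIV3) and again at DIV5. They were chosen by their labels alone, without any measured value, and comprise 5 samples at DIV3 (cultures 1, 2, 3, 10, and 11) and 6 at DIV5 (the same numbers and culture 4), or 11 of the 60 samples of the series and 11 of its 48 short-read RNA samples. The study asked how paxillin acts in the nucleus of developing neurons on RNA splicing, and the comparison of both days shows which transcripts moved over the days just after the knockdown. All 11 samples were wild-type neurons prepared, by their labels, from mouse embryos of day 18 and given the siRNA at day 2 in vitro in neurobasal medium with Gem21, with no transgene and no Cre. The text of the study also speaks of mouse cultures from an earlier embryonic day and of rat neurons, and the labels were followed here. The siRNA was added to the whole culture, and RNA was taken from the whole culture too. Side by side stand cultures with scrambled siRNA and no BDNF (3 at DIV3, 4 at DIV5) and cultures with paxillin siRNA and BDNF at 20 ng/ml, a neurotrophin that activates TrkB (4 at DIV3, 5 at DIV5). These shared no samples with the paxillin siRNA groups, but shared their culture numbers. The labels do not state that each number was a separate preparation, so p-values measure only the spread between samples. For limma this spread was estimated within the groups of all 48 short-read samples, and for permutation tests within the groups compared.

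Paxillin is a scaffold protein of focal adhesions, the sites where integrins tie the cell to the matrix, and it was known for that role before nuclear forms were described in neurons. Over the first days in culture, cortical neurons extend axons and dendrites, lay down synaptic proteins, and switch off genes of their migrating precursors. Glial cells that come with the tissue mature and multiply in the same dish, while vessel and meningeal cells meet a serum-free medium made for neurons.

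The authors deposited TPM, the abundance of each gene scaled for length and to a total of 1000000 per sample, so they give no sequencing depth. Per sample, 21039 to 22642 genes were above 0, and the 50 most abundant genes took 20.5 to 24.8% of the TPM. Neuronal Tubb3 was between 1142 and 2727 TPM in all 11 samples, and Map2 between 113 and 222 TPM, so neuronal RNA was present in each. Other neuronal markers were lower, such as Rbfox3 at 5.40 to 10.3 TPM. Markers of astrocytes summed to 264 to 1010 TPM at DIV3 and 1089 to 2038 TPM at DIV5. Those of the oligodendrocyte lineage summed to 796 to 1302 TPM and 1303 to 2332 TPM, so the cultures were mixed. Among the markers of vessel cells, Pecam1, Flt1, and Kdr were below 1 TPM in every sample. In bulk samples, fewer cells of a type and less RNA per cell cannot be told apart. The cultures were not alike at the start. At DIV3, the SD of the log2 differences over all genes tested was 0.254 between cultures 1 and 2 and 0.256 between cultures 10 and 11, but 0.437 to 0.512 for culture 3 against any other and 0.445 to 0.489 between the first pair and the second. Cultures 10 and 11 had no scrambled partner. In culture 3 the DIV3 samples of both siRNAs lay within 0.192 of each other, the smallest of the distances computed among these samples. In cultures 1 and 2 the distance between both siRNAs was 0.246 and 0.27 at DIV3. At DIV5 it was 0.49, 0.556, 0.345, and 0.651 in cultures 1, 2, 3, and 4, next to 0.252 to 0.538 between different cultures with paxillin siRNA. Because cultures 10 and 11 and culture 3 stood apart, the counts over all genes and those of the lists that turned on these cultures are also given without them.

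Pxn itself (chr5:115491970-115555987 in GRCm38.p6) was at 8.02, 9.49, 11.4, 8.38, and 7.79 TPM in DIV3 cultures 1, 2, 3, 10, and 11, the order used for DIV3 values throughout. At DIV5 it was between 8.43 and 9.83 TPM, with a median of 9.11 TPM. The DIV5 values lay inside the range of the DIV3 values, and the log2 difference of 0.03 was smaller than the spread between samples (2-sided exact permutation p = 0.734, 462 splits). With scrambled siRNA, Pxn was between 9.16 and 11.7 TPM at DIV3 and between 12.4 and 19.9 TPM at DIV5, so all DIV5 samples with scrambled siRNA were above all DIV5 samples with paxillin siRNA, while the ranges overlapped at DIV3. The change with scrambled siRNA was 0.54 on the log2 scale (limma, adjusted p = 0.092), and it differed from that under paxillin siRNA by -0.51 (adjusted p = 0.699). Snap25, the membrane fusion gene whose exon choice the study follows, was at 20.6, 24.9, 26.9, 39.9, and 40.8 TPM at DIV3 and between 30.9 and 47.6 TPM at DIV5, with a median of 35.6 TPM. It was higher at DIV5 in 5 of 5 cultures, although the ranges of both days overlapped. Its log2 difference was 0.34 (exact permutation p = 0.126, and limma adjusted p = 0.299 without the block). Over the 5 pairs, an exact sign-flip test gave p = 0.0625, the smallest this design allows. Cultures 1 to 4 alone gave 0.49 (exact permutation p = 0.0286, the smallest for 3 against 4), and limma with the culture number as a block gave 0.41 with an adjusted p of 0.0288. The TPM cover whole genes, so the exons of Snap25 cannot be separated here.

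Across all genes, 559 were higher at DIV5 than at DIV3 (3.92% of the 14250 tested) and 235 were lower (1.65%), by limma on log2(TPM + 1) in a fit of all 48 short-read samples with a Benjamini-Hochberg adjusted p under 0.05. On this scale the changes of genes with low values are understated. Rises made up 70.4% of these calls, and 58.1% (533 against 384) after rescaling by median ratio size factors. The median log2 difference over all genes tested was 0.03. In 529 of the 559 rises and 217 of the 235 falls the direction was the same in all 5 cultures sampled on both days. The DIV3 and DIV5 values did not overlap for 476 of the called genes (3.34% of those tested), 365 higher and 111 lower. When the culture number entered the fit as a block, 1299 genes were higher (9.12%) and 816 lower (5.73%), and these included all 794. Leaving out cultures 10 and 11, which left 3 samples against 4, gave 103 higher (0.723%) and 50 lower (0.351%), and leaving out culture 3 gave 949 and 411. The count was 354 without DIV3 culture 10, 460 without DIV3 culture 11, and 463, 402, and 413 without DIV5 cultures 1, 2, and 4.

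The 12 rises and 12 falls described first were the largest past the threshold among genes whose days did not overlap and that moved alike in all 5 cultures, so both of these features were fixed by the choice. Larger changes whose days overlapped, such as those of Col1a1 and Nrgn, are given with their lists. The rises were led by Slc7a3, Ntsr2, and Ddn. Slc7a3 (chrX:101079146-101090452), a transporter of cationic amino acids, was at 8.22, 18.4, 17.3, 4.08, and 1.87 TPM at DIV3 and between 20.0 and 157 TPM at DIV5, with a median of 65.5 TPM. Cultures 10 and 11 were the lowest at DIV3. It rose by 2.82 ± 0.59 on the log2 scale (SE, limma adjusted p = 0.00325). Ntsr2 (chr12:16653443-16660236), a neurotensin receptor of astrocytes, was at 10.4, 9.03, 3.44, 2.48, and 2.89 TPM at DIV3 and between 16.6 and 58.6 TPM at DIV5, with a median of 38.3 TPM. Cultures 1 and 2 had the most of it on both days, and the rise of 2.60 ± 0.39 (adjusted p = 7.3e-05) was larger than this difference between cultures. Ddn (chr15:98803782-98807925) encodes dendrin, a protein of dendrites and postsynaptic sites. It was at 165, 121, 144, 90.0, and 85.6 TPM at DIV3 and between 441 and 1181 TPM at DIV5, with a median of 713 TPM. Its rise of 2.59 ± 0.34 shared the lowest adjusted p of the comparison (1.91e-05) with the fall of Rgs5.

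Among the other rises were further transporters and synaptic or stress genes. Slc6a7, the proline transporter of glutamatergic terminals, went from 1.43 to 4.0 TPM at DIV3 to between 5.78 and 24.1 TPM at DIV5 (log2 difference 2.25, adjusted p = 0.0022). Chac1 (chr2:119351242-119354326), an enzyme that degrades glutathione and a target of ATF4, was at 31.9, 37.0, 54.6, 21.2, and 13.3 TPM at DIV3 and between 68.9 and 209 TPM at DIV5, with a median of 151 TPM. Culture 3 was highest at DIV3 and lowest at DIV5 (2.24 ± 0.46, adjusted p = 0.00292). Rprml, a relative of the cell cycle regulator reprimo, was at 7.18 to 22.1 TPM at DIV3 and at 50.3 to 123 TPM at DIV5 (2.29 ± 0.42, adjusted p = 0.000987). Paqr6 (2.43), Itih3 (2.26), Klhl33 (2.03), Fbxo2 (1.98), and the noncoding A830036E02Rik (1.96) also rose, each with an adjusted p of at most 0.0041. Cox6a2, a subunit of cytochrome oxidase in muscle and some neurons, rose by 2.03 with an adjusted p of 0.0358. It lost its call in 7 of the 11 fits that left out 1 sample, with an adjusted p of up to 0.124.

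The 12 falls chosen the same way were led by Col3a1, Acta2, and Rgs5, which with Tagln belonged to the list of endothelial, mural, and fibroblast genes. Mural cells are the contractile cells of vessel walls. Col3a1 (chr1:45311538-45349706), a fibrillar collagen, was at 66.2, 22.8, 41.4, 13.3, and 11.2 TPM at DIV3 and between 0.240 and 7.78 TPM at DIV5, with a median of 1.69 TPM. Cultures 1 and 3 had the most of it at DIV3, and it fell by 3.24 ± 0.62 on the log2 scale (limma adjusted p = 0.00147). Acta2 (chr19:34240336-34255585), smooth muscle actin, was at 23.3, 6.75, 27.7, 11.3, and 7.22 TPM at DIV3 and between 0.182 and 4.41 TPM at DIV5, with a median of 0.469 TPM. Only culture 3 kept more than 1 TPM at DIV5, and the difference was -3.01 (adjusted p = 0.000351). Rgs5 (chr1:169655501-169695813), a marker of pericytes, was at 11.5, 6.23, 28.7, 11.7, and 10.8 TPM at DIV3 and between 0.282 and 5.04 TPM at DIV5, with a median of 0.793 TPM. It fell by 2.69 ± 0.36. Col10a1 (-2.40), Mgp (-2.29), Tagln (-2.22), Foxd1 (-1.69), Pcolce (-1.64), Palmd (-1.48), and Col18a1 (-1.25) fell as well, with adjusted p between 0.000213 and 0.00931. Thbs1, a secreted thrombospondin, fell by 1.71 with an adjusted p of 0.043, which was above the threshold in 9 of the 11 fits that left out 1 sample and reached 0.128. Of another kind was Eomes (chr9:118478186-118486132), the transcription factor of intermediate progenitors of the cortex. It was at 19.3, 19.6, 23.7, 11.5, and 25.8 TPM at DIV3 and between 1.18 and 9.54 TPM at DIV5, with a median of 4.0 TPM, and it fell by 2.10 ± 0.32 (adjusted p = 7.3e-05). Without cultures 10 and 11, 12 of these 24 genes kept their calls by limma and 12 did not, Slc7a3 (adjusted p = 0.0509) and Chac1 (0.155) among the latter. With the culture number as a block, all 24 were called.

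**Figure D1:**
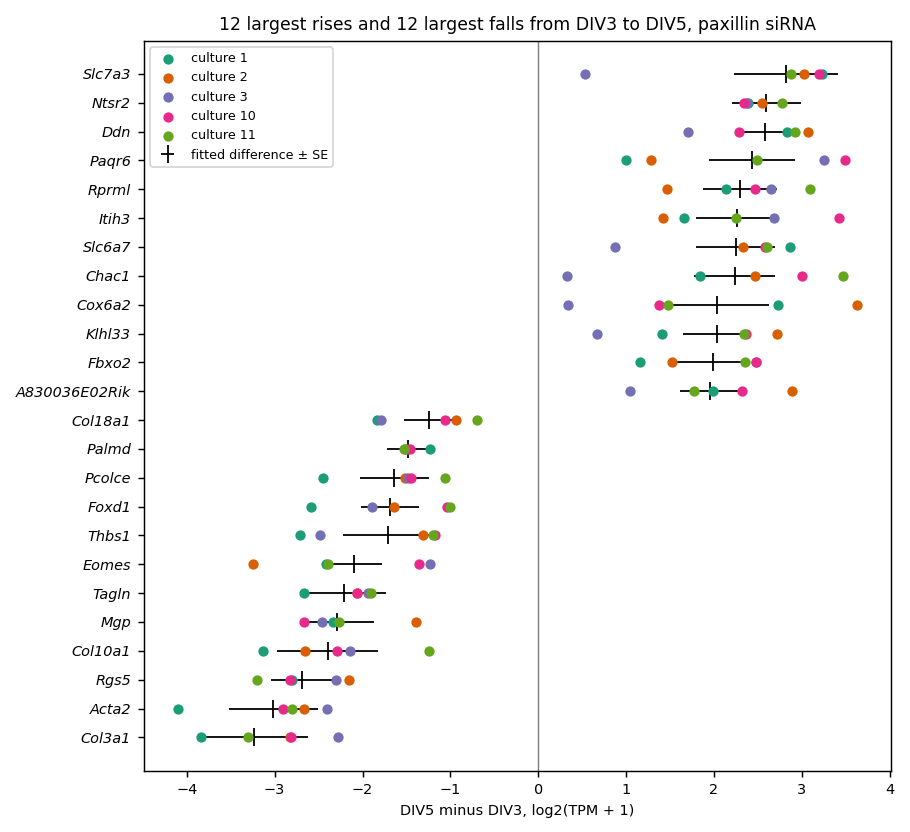
The 12 largest rises and 12 largest falls under paxillin siRNA among genes past the threshold whose days did not overlap and that moved alike in all 5 cultures, with the difference in log2(TPM + 1) within each culture (DIV5 minus DIV3) as a coloured point and the fitted log2 difference ± SE in black. The common side of 0 was fixed by this choice, and the fitted differences shown run from -3.24 (Col3a1) to 2.82 (Slc7a3).

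The amino acid stress response held the most rises among the 26 lists with genes tested. In this response, the kinases GCN2 and PERK raise translation of the transcription factor ATF4 when amino acids run short or proteins misfold, and ATF4 drives genes for amino acid import and synthesis. Of 35 such genes, all tested, 19 were higher, none was lower, and 16 did not pass, with a median log2 difference of 1.10 against 0.03 over all genes. 34 of the 35 differences were positive, and in 18 genes, called or not, the values of both days did not overlap. The share of all genes tested without overlap was not counted. The 3.34% given above holds only genes that were also called, so it is no background for these 18. No result is drawn from them. The block gave 23 rises, leaving out culture 3 gave 26, and leaving out cultures 10 and 11 gave 2, Psat1 and Psph. Over all genes, 3.92% rose as first fitted, 9.12% with the block, and 0.723% without cultures 10 and 11. Without culture 3, 949 of 14250 genes rose. The count was 12 without DIV3 culture 10, 11 without DIV3 culture 11, 11 without DIV5 culture 2, and 12 without DIV5 culture 4. The further members named here were chosen after their values were seen, to show each step of the pathway.

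The genes of serine synthesis also rose. Psat1 (chr19:15905123-15925059), the aminotransferase of this pathway, was at 39.8, 50.6, 62.5, 43.6, and 45.7 TPM at DIV3 and between 84.3 and 188 TPM at DIV5, with a median of 138 TPM. The groups did not overlap, and culture 3 was the highest at DIV3 and the lowest at DIV5 (1.45 on the log2 scale, limma adjusted p = 3.93e-05). Psph, the phosphatase that completes the pathway, rose by 1.10 (adjusted p = 4.09e-05), and Phgdh, which opens it, by 1.21 (adjusted p = 0.00431). Asns (chr6:7675165-7693209), asparagine synthetase, was at 72.1, 94.0, 100.3, 91.8, and 78.5 TPM at DIV3 and between 129 and 244 TPM at DIV5, with a median of 180 TPM, again without overlap (1.09, adjusted p = 0.00498). Mitochondrial folate enzymes followed, with Mthfd2 at 1.17 (adjusted p = 0.00804) and Shmt2 at 1.09 (adjusted p = 0.0109, and 0.0521 when 1 of the 11 samples was left out). Pck2, the mitochondrial PEP carboxykinase, rose by 1.87 (adjusted p = 0.0212) and lost its call in 4 of 11 such fits, with an adjusted p of up to 0.0873.

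Transporters of amino acids formed another branch. Besides Slc7a3, the large neutral amino acid carrier Slc7a5 rose by 1.44 (adjusted p = 0.00345), the cationic carrier Slc7a1 by 1.18 (adjusted p = 0.00324), and the glycine carrier Slc6a9 by 1.43 (adjusted p = 0.00612). In culture 3 these 3 differed by 0.0062, -0.11, and -0.17. Their adjusted p without cultures 10 and 11 were 0.168, 0.185, and 0.225. Slc3a2, the heavy chain that Slc7a5 pairs with, was at 160.3, 187, 196, 108, and 84.6 TPM at DIV3 and between 172 and 571 TPM at DIV5. It was higher at DIV5 in 4 of 5 cultures and lower in culture 3, with a fitted rise of 1.28 (adjusted p = 0.0186, up to 0.0777 in the 4 of 11 fits that lost the call). The regulators were less clear. Atf4 was at 1009.9, 982, 1003, 965, and 783 TPM at DIV3 and between 1312 and 1933 TPM at DIV5, with a median of 1626 TPM. Both groups were apart and tight, yet the log2 difference of 0.77 did not pass without the block (adjusted p = 0.0868) and did with it (0.80, adjusted p = 0.0411). Trib3, a feedback inhibitor of ATF4, had a larger difference of 2.23 with an adjusted p of 0.0982, and 0.0425 with the block. For Ddit3, the transcription factor CHOP, the values were 1.29 and 0.102, and the block did not change its call. The tRNA synthetases were split: Nars (0.60, adjusted p = 0.0162) and Aars (0.60, adjusted p = 0.0384) rose, Sars and Gars did not pass, and Wars differed by -0.18 (adjusted p = 0.438). Aars lost its call in 9 of the 11 fits that left out 1 sample, as did Atf5 (1.35, adjusted p = 0.0449), Stc2 (1.52, adjusted p = 0.0449) in 8, Herpud1 (1.02, adjusted p = 0.0309) in 6, and Nars in 2.

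**Figure D2:**
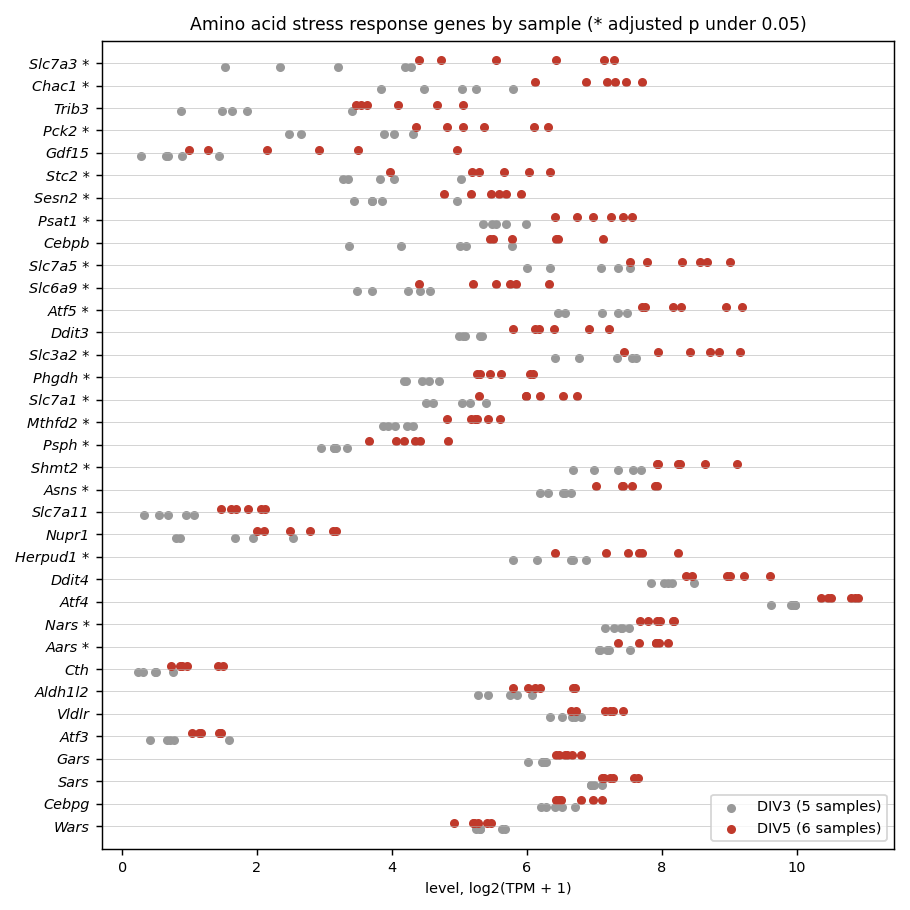
Levels of the 35 amino acid stress response genes in each of the 11 paxillin siRNA samples, as log2(TPM + 1), with DIV3 and DIV5 points for each gene and an asterisk at genes past the threshold. The 19 marked genes lie higher at DIV5, while Wars (log2 difference -0.18) lies lower.

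ATF4 pairs with C/EBP proteins on the element TGATGNAA, and the promoters of these genes were read for that string. Promoter sequences from RefSeq (GRCm38.p6, 250 bases before to 50 after each start) matched 29 of the 35 genes, but not Slc7a3, Slc7a5, Aldh1l2, Cth, Wars, and Nars. On either strand, 11 of the 29 (37.9%) held the string, against 3.97% of all 32851 promoters of 300 bases and 2.67% of the 11256 genes tested that matched. It was held by 5 of the 16 called genes (31.2%) and by 6 of the 13 not called (46.2%), and by 22 of 438 matched genes higher at DIV5 (5.02%) and 4 of 194 lower (2.06%). The list was written with this pathway in view, so its share is a description and neither a binding site nor a cause. The windows below belong to the called genes that hold the string, and are shown to place it within its surroundings. They read 5′ to 3′ on the strand of the gene, with the match in capitals (as TGATGNAA or as its reverse complement).
Chac1, plus strand, chr2:119351023-119351082: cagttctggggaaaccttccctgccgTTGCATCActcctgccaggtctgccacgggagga
Pck2, plus strand, chr14:55540137-55540196: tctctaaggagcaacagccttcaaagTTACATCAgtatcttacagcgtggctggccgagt
Asns, minus strand, chr6:7693199-7693258: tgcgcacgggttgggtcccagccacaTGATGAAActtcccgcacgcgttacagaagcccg
Herpud1, plus strand, chr8:94386291-94386350: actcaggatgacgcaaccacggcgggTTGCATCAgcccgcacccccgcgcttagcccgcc
Aars, plus strand, chr8:111033704-111033763: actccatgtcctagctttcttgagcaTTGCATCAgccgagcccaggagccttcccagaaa

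The distance of the first matched base from the start site was -193 for Chac1, -103 for Pck2, -23 for Asns, and -112 for both Herpud1 and Aars, which held another match 10 bases after its start. These 5 genes rose by 2.24, 1.87, 1.09, 1.02, and 0.60 on the log2 scale. Psat1 and Psph, which had the lowest adjusted p of the list, held no match in this window.

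Astrocyte genes rose too. Of 25 tested, 10 were higher, none was lower, and 15 did not pass, with a median log2 difference of 1.22 against 0.03, and all 25 differences were positive. The shares higher over all genes were 3.92%, 9.12% with the block, and 0.723% without cultures 10 and 11. The block gave 17 rises, cultures 1 to 4 alone gave 2, and leaving out 1 sample gave between 3 (DIV3 culture 10) and 13, with 5 without DIV3 culture 11 or 3, 6 without DIV5 culture 1, 4 without DIV5 culture 2, and 5 without DIV5 culture 4. Apoe (chr7:19696244-19701310), the main lipid carrier that astrocytes secrete, was at 1235, 1011, 375, 173, and 382 TPM at DIV3 and between 1219 and 2937 TPM at DIV5, with a median of 2154 TPM. It was higher at DIV5 in 5 of 5 cultures, although the DIV3 level of culture 1 was above the lowest DIV5 level (1.97 on the log2 scale, limma adjusted p = 0.00919, and 0.0633 without DIV3 culture 10). Atp1b2, a glial subunit of the sodium pump, was at 304 to 622 TPM at DIV3 and 706 to 1534 TPM at DIV5 (1.22, adjusted p = 0.0011). Sparcl1, a secreted synaptogenic protein, rose by 1.69 (adjusted p = 0.0102), and the glutamate transporter Slc1a3 by 1.26 (adjusted p = 0.0281, above the threshold in 6 of 11 fits that left out 1 sample). The metallothioneins Mt1 (1.49) and Mt2 (1.28) rose with adjusted p of 0.0258 and 0.0469, each lost in at least 5 of those fits, and both are also made outside astrocytes. Gfap, the filament of mature astrocytes, was at 573, 525, 24.7, 6.15, and 64.7 TPM at DIV3 and between 119.7 and 1214 TPM at DIV5. The cultures differed more than the days did, and its log2 difference of 2.57 passed only with the block (adjusted p = 0.162 without and 0.0406 with it). Aqp4, the water channel, differed by 2.14 and did not pass (adjusted p = 0.265).

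The summed level of the astrocyte list was 1473 to 4002 TPM at DIV3 and 4217 to 8443 TPM at DIV5, with a median of 7028 TPM, and the ranges did not overlap. That of the 35 amino acid stress genes was 2487 to 3577 TPM at DIV3 and 4206 to 7763 TPM at DIV5, so both sums rose over the same days. In culture 3 the median difference of the stress list was 0.211, against 0.933 to 1.447 in the other cultures, while that of the astrocyte list was 1.046, within the 0.882 to 1.565 of the others. The part of astrocyte RNA in the rise of the stress genes was not tested. Genes of the oligodendrocyte lineage had a median log2 difference of 1.24 and 17 of 17 positive differences, but none of them passed. The block called 5 of them, Sox10 (1.64), Gpr17 (2.34), Bcas1 (2.25), Cnp (1.79), and Cspg4 (0.96), with adjusted p between 0.00434 and 0.0465. Their summed level was 821 to 1724 TPM at DIV3 and 1623 to 2828 TPM at DIV5. None of 12 microglial genes passed (median 0.20), and their markers summed to 31.2 to 117 TPM and 37.7 to 104 TPM.

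Genes of endothelial, mural, and fibroblast cells were the group that fell most. Of 17 in the list, 13 were tested and 8 were lower, none was higher, and 5 did not pass, with a median of -2.17 and positive differences in 3 of 13. This count was 8 with the block, 6 without cultures 10 and 11, and 6 to 8 when 1 sample was left out. The shares lower over all genes were 1.65%, 5.73% with the block, and 0.351% without cultures 10 and 11. Col1a1, the other main fibrillar collagen, fell by 3.24 (adjusted p = 0.00505), from 182, 57.1, 75.2, 26.5, and 14.7 TPM to between 0.742 and 19.8 TPM. The days overlapped, because culture 3 at DIV5 was above culture 11 at DIV3, but each culture fell. Foxc1, a transcription factor of meninges and pericytes, fell by 2.17 (adjusted p = 0.000809). Esam, an adhesion molecule of endothelium, had a small fall of 0.44 (adjusted p = 0.0425) and lost its call in 7 of 11 fits that left out 1 sample. Those that did not pass, named after their values were seen, were the prostaglandin synthase Ptgds, which was higher in 5 of 5 cultures (0.04 to 0.87 on the log2 scale, adjusted p = 0.756), Dcn, Pdgfrb, and Cldn5, which went both ways between cultures, and Kdr. The list summed to 64.5 to 385 TPM at DIV3 and 13.2 to 61.2 TPM at DIV5, with a median of 26.1 TPM. Of 4 red blood cell genes tested, 2 were lower, Hba-a1 (-1.20, adjusted p = 0.0153) and Hbb-bs (-0.88, adjusted p = 0.00408). Hbb-bs was at only 0.470 to 2.05 TPM at DIV3 and at most 0.356 TPM at DIV5. The red blood cell list summed to 2.94 to 9.54 TPM at DIV3 and 0.233 to 2.65 TPM at DIV5. Without cultures 10 and 11, Hba-a1 had an adjusted p of 0.0521. Both genes have near-identical copies between which the assignment of reads is uncertain.

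**Figure D3:**
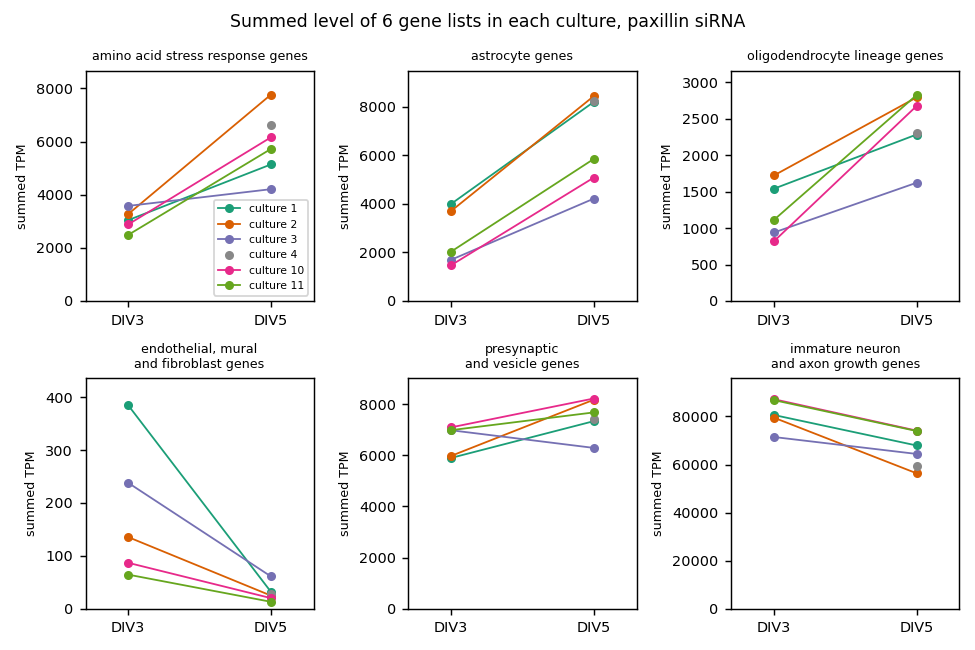
Summed TPM of 6 gene lists in each culture under paxillin siRNA, with a line from DIV3 to DIV5 for each culture sampled on both days. The astrocyte and amino acid stress sums rise in every culture sampled on both days (to 4217 and 4206 TPM or more), and the endothelial, mural, and fibroblast sum falls in each (to 61.2 TPM or less).

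Synaptic and channel genes shifted less. For paxillin siRNA without BDNF, counts of all lists, above and below, stand against 3.92% higher and 1.65% lower over all genes. With the block these shares were 9.12% and 5.73%. Counts for scrambled siRNA and for BDNF are given with shares of their own. A count of 1 or 2 genes is read as no result about its list. Of 32 presynaptic and vesicle genes, 3 were higher and none was lower, with a median of 0.24. Syn2, a synapsin that tethers synaptic vesicles, was at 4.50, 5.27, 4.95, 4.46, and 5.35 TPM at DIV3 and between 8.02 and 10.5 TPM at DIV5, with a median of 8.86 TPM. Both groups were tight and apart, and the rise of 0.76 (limma adjusted p = 0.000449) held in all 11 fits that left out 1 sample and without cultures 10 and 11 (adjusted p = 0.00944). Slc17a7, the vesicular glutamate transporter VGLUT1, was at 49.9 to 104 TPM at DIV3 and 118.9 to 342 TPM at DIV5 (1.49, adjusted p = 0.0175, above the threshold in 4 of those fits). Sv2b, another vesicle protein, rose by 1.41 (adjusted p = 0.0325, above it in 8). The count fell to 1 without DIV3 culture 11 or 3 and without DIV5 culture 1 or 2, and was 8 with the block and 5 without culture 3. Of 37 glutamate receptor and postsynaptic genes, 4 were higher and none was lower (median 0.15), with 7 under the block and none without cultures 10 and 11. Camk2a, the kinase of postsynaptic plasticity, was at 14.99, 13.1, 19.3, 18.5, and 17.4 TPM at DIV3 and between 33.1 and 71.2 TPM at DIV5, with a median of 50.2 TPM and no overlap (1.53, adjusted p = 0.00259). Nrgn, which binds calmodulin in dendritic spines, was at 192, 165, 48.9, 39.6, and 53.7 TPM at DIV3 and between 173 and 703 TPM at DIV5, with a median of 501 TPM. Cultures 1 and 2 were above the others at DIV3, so the days overlapped, while each culture rose (2.31, adjusted p = 0.00317). Dlg4, the scaffold PSD-95, rose by 0.68 (adjusted p = 0.00549), and the glutamate receptor Grm7 by 0.75 (adjusted p = 0.00321).

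Among 38 voltage-gated channel genes, 3 were higher and none was lower (median 0.26), and 9 were higher under the block. Kcna2, a potassium channel of axons, went from 27.3 to 38.9 TPM to between 47.6 and 63.1 TPM (0.74, adjusted p = 0.00697), and Kcnc4, another potassium channel, rose by 0.95 (adjusted p = 0.0162). Without cultures 10 and 11 only Kcnc4 of the list was called (adjusted p = 0.0394). The 13 GABA-A receptor genes had a median of 0.39 and none passed, and the block called 2. In culture 3 the median differences of the presynaptic, postsynaptic, GABA-A, and channel lists were -0.143, -0.127, -0.118, and -0.076, and in each of the other cultures all were positive.

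Of the genes of immature neurons 1 of 33 passed, with a median of -0.26 and positive differences in 6 of 33. That gene was Sox11, a transcription factor of newborn neurons, at 1871, 2219, 2499, 2062, and 2365 TPM at DIV3 and between 884 and 1891 TPM at DIV5, with a median of 1113 TPM. It was lower in every culture, by 0.87 on the log2 scale (adjusted p = 0.0295, and above the threshold in 6 of the 11 fits that left out 1 sample). Its adjusted p was 0.29 without cultures 10 and 11. Igfbpl1 (-1.34), Neurod6 (-1.01), and Neurod2 (-0.97), named after their values were seen, were also lower in 5 of 5 cultures but did not pass (adjusted p of 0.0788, 0.279, and 0.0906). With the block, 3 of the list were lower, Sox11, Igfbpl1, and Neurod2. Of 29 progenitor genes, Hes5 rose (1.02, adjusted p = 0.00952, 0.0548 without DIV3 culture 10, and 0.101 without cultures 10 and 11) and Eomes fell, and the median was 0.19. The block called 3 higher and 3 lower. Hes5 is a Notch target of radial glia and also of astrocyte precursors. Transcription factors of cortical layers had a median of -0.32 and none of 21 passed, while the block called 8, all lower, with Tbr1 (-0.93, adjusted p = 0.0559 without and 0.000176 with it) and Bcl11a (-0.56, 0.0633 and 0.00252) among them. None of 42 cell cycle genes passed (median -0.18). Their direction depended on the culture, with positive differences in 41 of 42 in culture 3 and in 2, 0, 10, and 2 of 42 in cultures 1, 2, 10, and 11. The block called 3 lower, and leaving out culture 3 called 4, all lower.

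**Figure D4:**
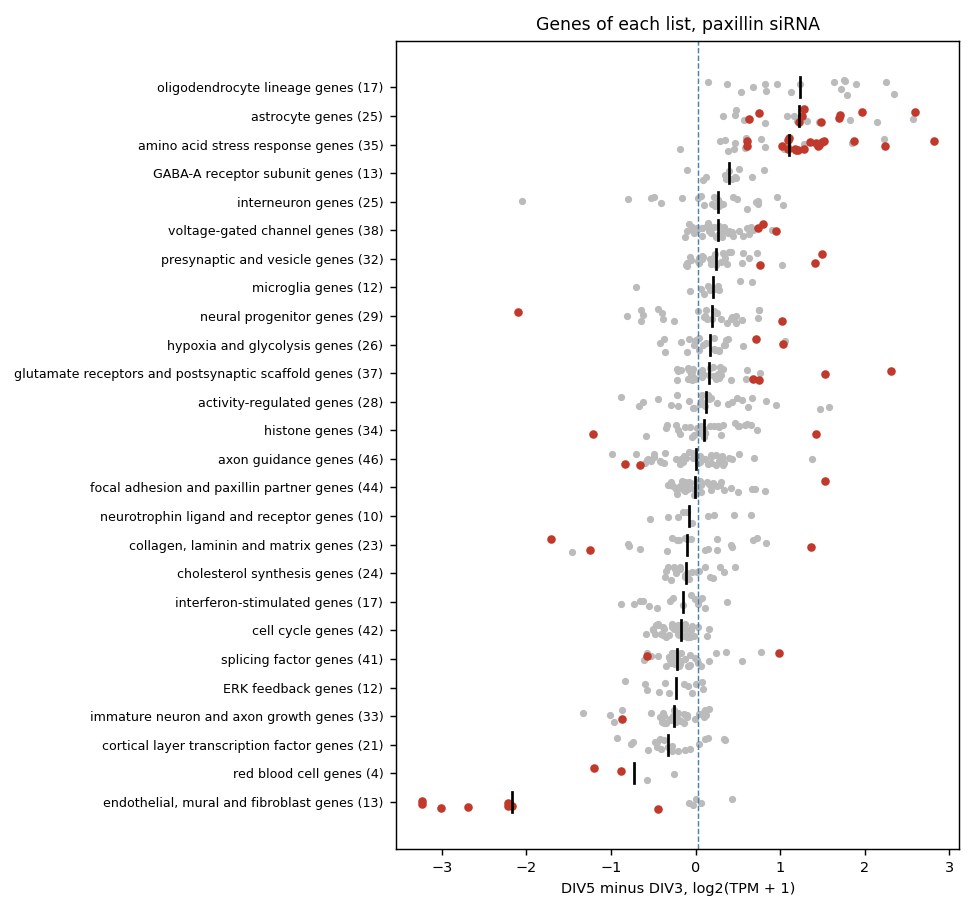
Log2 differences (DIV5 minus DIV3, paxillin siRNA) of the genes in 26 lists. Each dot is a gene, red where it passed the threshold, the bar is the median of the list, and the dashed line is the median of all genes tested (0.03). The amino acid stress (1.10), astrocyte (1.22), and oligodendrocyte (1.24) medians lie to the right, and the endothelial, mural, and fibroblast median (-2.17) lies far to the left.

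The lists closest to the study's question had few calls without the block. Splicing factors, the RNA-binding proteins that choose exons, had 1 of 41 higher and 1 lower, with a median of -0.22. The median difference of this list was -0.180, -0.264, -0.268, and -0.330 in cultures 1, 2, 10, and 11, but 0.028 in culture 3. Mbnl2 (chr14:120275652-120431698), a muscleblind protein of mature exon choice, was at 1.55, 1.63, 2.51, 1.501, and 1.83 TPM at DIV3 and between 3.53 and 5.98 TPM at DIV5, with a median of 4.32 TPM. Hnrnpa1 (chr15:103239943-103246698), a repressor of exons, was at 2375, 2328, 2467, 2364, and 2590 TPM at DIV3 and between 1371 and 1935 TPM at DIV5, with a median of 1649 TPM. In both genes the groups were tight and apart, with differences of 0.98 (limma adjusted p = 0.000809) and -0.58 (adjusted p = 0.004), and both calls held in all 11 fits that left out 1 sample. Without cultures 10 and 11, Hnrnpa1 had an adjusted p of 0.0521 and Mbnl2 of 0.0265. Hnrnpa1 has many processed copies in the genome, so the assignment of its reads is uncertain. The block called 2 higher (Mbnl2 and Qk) and 7 lower (Hnrnpa1, Hnrnpl, U2af2, Srrm4, Elavl2, Khdrbs1, and Khdrbs3), and leaving out culture 3 called 1 and 6. Over all genes, 5.73% were lower with the block, and 411 of 14250 without culture 3. The neuronal microexon factor Srrm4 differed by -0.62 (adjusted p = 0.0514 without and 0.0108 with the block). Of 44 genes of focal adhesions and paxillin partners, 1 was higher, Itga7, an integrin that binds laminin (1.52, adjusted p = 0.00535), none was lower, and the median was -0.00. The block called 2 higher and 3 lower, and without cultures 10 and 11 none was called (Itga7, adjusted p = 0.0521). Among 23 collagen, laminin, and matrix genes, Bcan, the brevican of perineuronal matrix, was higher (1.36, adjusted p = 0.0205), and Col18a1 and Thbs1 were lower. This count of 3 was 1 without cultures 10 and 11 (Bcan, adjusted p = 0.296), 1 without DIV3 culture 10 or DIV5 cultures 2 or 4, and 8 with the block. Axon guidance genes had a median of 0.00, and 2 of 46 were lower, Robo1 (-0.84, adjusted p = 0.0201) and Plxna4 (-0.65, adjusted p = 0.0428), a receptor of Slits and one of semaphorins. Both were lost when some samples were left out, Robo1 in 3 and Plxna4 in 8 of 11 fits, and the block called 5 of the list, 4 of them lower. Neither was called without cultures 10 and 11 (adjusted p of 0.05005 and 0.203).

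To show whether the change between days depended on the siRNA, the paxillin siRNA change was set against the scrambled siRNA change in the same fit. With scrambled siRNA, 1139 genes were higher (7.99%) and 211 lower (1.48%). The difference of both changes was past the threshold for 0 of 14250 genes (0%) by limma, with a lowest adjusted p of 0.559 and 1054 genes at an unadjusted p under 0.05. The block and the other settings also gave 0, except that 25 genes were called, 24 of them negative, without DIV5 scrambled siRNA culture 3. Of the 559 genes higher under paxillin siRNA, 301 were higher under scrambled siRNA as well (53.8% of the former, 26.4% of the latter), and 549 had the same sign. Of the 235 lower, 57 were lower in both (24.3% and 27%), and 199 had the same sign, with medians of -0.457 under paxillin siRNA and -0.274 under scrambled siRNA. Slc7a3 changed by 2.90 and Chac1 by 2.39 with scrambled siRNA, next to 2.82 and 2.24 with paxillin siRNA. The differences of -0.09 ± 0.95 for Slc7a3 and -0.15 ± 0.74 for Chac1 (SE, 4 and 3 scrambled siRNA samples) are smaller than their errors, so a difference of either sign is within them. Counts per list under scrambled siRNA were 11 of 35 higher for amino acid stress (median 1.06), 16 of 25 higher for astrocytes (median 2.00), and 7 of 13 lower for endothelial, mural, and fibroblast genes. Over all genes, 7.99% against 3.92% were higher and 1.48% against 1.65% lower, with medians of 0.11 and 0.03. The median difference of both changes was -0.093, and -0.0036 after rescaling by size factors. Other lists are named because they had more calls with scrambled siRNA than with paxillin siRNA. Rises numbered 8 against 1 of 44 focal adhesion and paxillin partner genes (median 0.22 against -0.00). They numbered 6 against 1 of 29 progenitor genes and 6 against 0 of 17 oligodendrocyte genes. Of 33 immature neuron genes, 9 against 1 were lower. For none of these genes was the difference itself past the threshold.

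Where BDNF had been given, the change between days differed for 19 genes (0.133%), 18 of them with a more positive change in its absence. With BDNF, 1062 genes were higher (7.45%) and 794 lower (5.57%) at DIV5. The 5 largest differences were in Arc, Egr2, Egr1, Ch25h, and Peg10. Arc (chr15:74669081-74672570), an immediate early gene of synapses, was at 4.34, 4.87, 5.04, 8.60, and 5.40 TPM at DIV3 and between 6.12 and 12.9 TPM at DIV5 without BDNF. With BDNF it was at 168 to 223 TPM at DIV3 and 14.6 to 16.6 TPM at DIV5. All samples with BDNF were above all those with paxillin siRNA alone on both days, and Arc fell there by 3.63 while it differed by 0.49 in its absence, a difference of the changes of 4.12 ± 0.52 (SE, limma adjusted p = 1.12e-05). Egr2 (chr10:67534469-67542188), a transcription factor of the same class, was below 3 TPM in all 11 samples without BDNF, and at 38.1 to 81.1 TPM at DIV3 and 1.49 to 5.39 TPM at DIV5 with it (3.87, adjusted p = 2.58e-06). Egr1 (3.24, adjusted p = 0.0039), Ch25h, which makes 25-hydroxycholesterol (3.13, adjusted p = 0.00223), and Peg10 (3.03, adjusted p = 0.00133) followed. Without cultures 10 and 11, Arc and Egr2 were the only genes called, and Egr1, Ch25h, and Peg10 had adjusted p of 0.123, 0.163, and 0.7. The one gene of opposite sign was Gdf9 (-0.86), named after its value was seen. Of the 19 genes, 17 fell with BDNF past the threshold, and 3 were past it without BDNF. The block gave 62 genes.

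**Figure D5:**
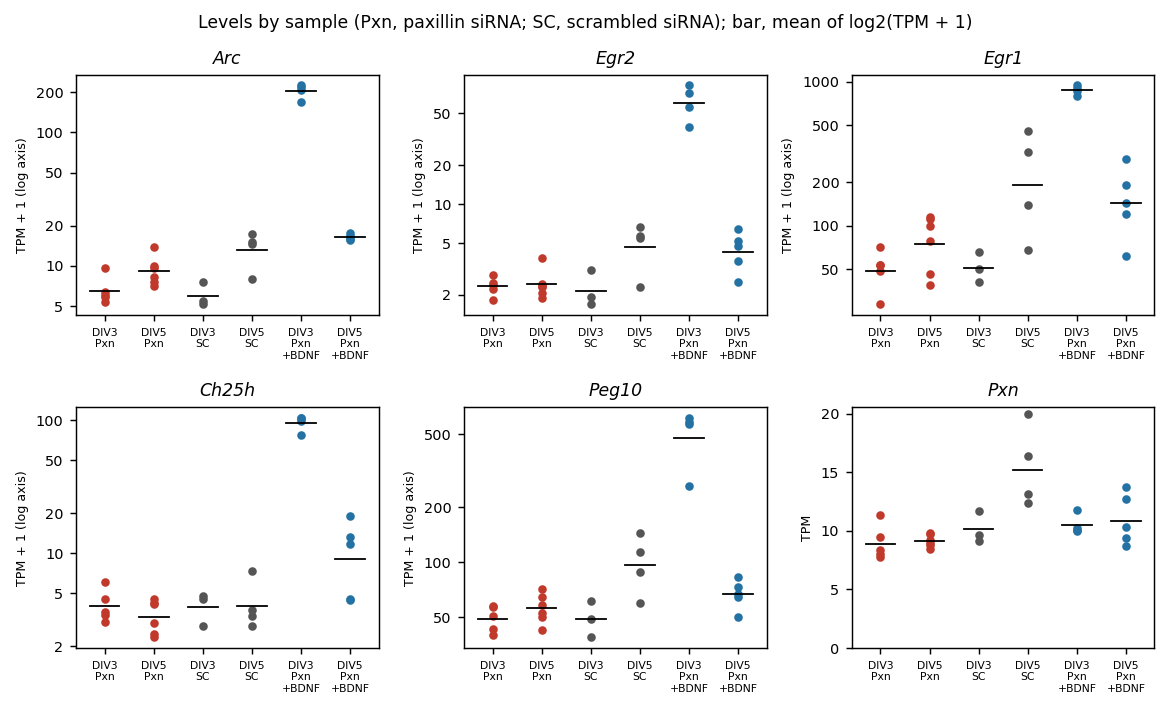
Levels of Arc, Egr2, Egr1, Ch25h, and Peg10 (TPM + 1, log axis) and of Pxn (TPM) in each sample at DIV3 and DIV5 with paxillin siRNA, scrambled siRNA, and paxillin siRNA + BDNF. Points are samples and the bar is the mean of log2(TPM + 1). The BDNF samples at DIV3 stand above all others for the first 5 genes (Arc at 168 to 223 TPM), while the paxillin siRNA samples without BDNF stay at 12.9 TPM or less for Arc on both days.

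The stress genes had smaller changes with BDNF, 5 of 35 higher with a median of 0.59. Counts with BDNF stand against 7.45% higher and 5.57% lower over all genes. Asns was at 126 to 206 TPM at DIV3 and 149 to 178 TPM at DIV5 with BDNF (0.04 on the log2 scale), against 1.09 without it, and the difference of 1.05 was not past the threshold (limma adjusted p = 0.536). Its DIV3 level with BDNF was above that of all DIV3 samples without it. Of 28 activity-regulated genes none passed without BDNF (median 0.13), while the block called 2 higher and 1 lower, and 5 were lower with BDNF (median -0.72). Feedback genes of the ERK pathway had none of 12 past the threshold (median -0.23), 1 lower with the block, and 9 lower with BDNF (median -1.48). In cholesterol synthesis, none of 24 passed (median -0.11), the block called 1 higher, and 10 were lower with BDNF (median -0.78). In the main fit without the block, the difference between these changes was past the threshold for no gene apart from the 19 above. With the block over all culture groups it was past it for 62 genes.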

How the data were processed

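RNA of mouse cortical cultures was measured by short-read sequencing (SureSelect XT HS2 mRNA libraries, paired-end). According to the submitters' notes and the methods of the study, the authors aligned reads to GRCm38 with STAR 2.7.10, estimated abundance with RSEM 1.3.3, and deposited TPM per gene, without pooling replicates. The table pairs values with gene symbols only, 39756 of them. Each sample sums to 1000000, so depth is unknown and no counting error can be given. Estimates by RSEM share reads between similar genes, so families of near-identical copies are uncertain. Groups and culture numbers came from the labels, and every column used was named by its sample. Columns of other groups entered only the estimate of the spread and the comparisons named.

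TPM were analysed as log2(TPM + 1). The 14250 genes that averaged 1 TPM or more across the 48 short-read samples were fitted with limma 3.58.1 (lmFit, eBayes with trend, R 4.3.3) in 13 groups without a block, and p-values were adjusted by Benjamini-Hochberg with a threshold of 0.05. For Pxn and Snap25, 2-sided exact permutation tests were used. Scripts were tested on simulated data with known changes. The simulated noise was independent between samples, so that test cannot show the error rate where samples share a culture number. Culture numbers were taken as pairs, because the deviations of same-numbered samples from their group means correlated by 0.44 to 0.625 in all 5 pairs. For 4 of the 5 DIV3 samples, the best match among the DIV5 samples had the same number. Culture 2 was matched best by culture 1 (0.469 against 0.464 for its own number). Cultures 1 and 2 lay close to each other, as did 10 and 11. The correlations therefore do not show that each number was an independent preparation. The fit with the number as a block is therefore given beside the counts that it changed. Alternatives were a pseudocount of 0.1, no filter, a filter over the groups compared, median ratio size factors, fits of the groups compared only, no trend, blocks, and leaving out samples. Leaving out culture 3, and 1 block fit without cultures 10 and 11, were chosen after seeing the data, as were the blocked fits of the scrambled siRNA and BDNF changes.

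The genes named were Pxn, Snap25, the 12 largest rises and 12 largest falls past the threshold whose groups did not overlap and which moved alike in all 5 cultures, up to 2 rises and 2 falls past the threshold in each list (where none passed, the 2 with the highest mean level), and the 5 largest differences between changes. Some genes that this rule named are not reported here. The members and the 27 gene lists, written from general knowledge, were chosen with earlier results of these data known. Promoters and gene positions came from RefSeq (GRCm38.p6). Python 3.11.15, numpy 2.4.6, pandas 2.3.3, and matplotlib 3.10.9 were used. The long-read libraries, DIV10, and the splicing of single exons were not analysed here.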

Additional observations from a re-analysis of the deposited data

Results flagged for a closer look

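Among 192 checks of a group of samples for 1 value far from the rest, 9 were past the 95% critical value of Dixon's test, about the share that chance gives (1 in 20). Culture 3 at DIV5 accounted for 4 of them. It held more Acta2 (4.41 TPM, the next highest culture being at 0.637 TPM), more Rgs5 (5.04 against 0.831 TPM), and more Foxd1 (1.04 against 0.366 TPM) than the other DIV5 samples, and its splicing factor genes summed to 9530 TPM against 7331 TPM in the next. At DIV3, culture 3 had the highest sum of cortical layer transcription factors, 6045 TPM against 4739 TPM. Culture 10 had the lowest Hba-a1 at DIV3 (1.62 against 3.66 TPM). At DIV5, culture 10 was lowest for Dlx2, a transcription factor of interneuron precursors (126 against 244 TPM), and for the layer transcription factors (2616 against 3728 TPM). Culture 1 had the highest sum of interneuron genes at DIV3 (2617 against 1745 TPM).

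The change from DIV3 to DIV5 under paxillin siRNA differed with BDNF, by a test of the difference itself in limma, for 19 genes. The largest log2 differences of the changes were 4.12 for Arc, 3.87 for Egr2, 3.24 for Egr1, 3.13 for Ch25h, and 3.03 for Peg10.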

How the results depend on the processing

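The 794 genes past the threshold became 1536 in a fit of both groups only, 3047 and 2115 with the replicate block (both groups, all culture groups), 153 without cultures 10 and 11, 1360 without culture 3, 2153 with the block in cultures 1, 2, 3, and 10, and 354 to 975 with 1 sample left out. The 19 genes of the BDNF difference became 40 with no filter, 47 in the fit of the groups compared only, 534 and 62 with the block, 2 without cultures 10 and 11, and 12 to 22 with 1 sample left out. Calls of the scrambled siRNA difference ranged from 0 to 25, and the changes under scrambled siRNA and with BDNF gave 2188 and 3121 calls with the block. All 46 named genes past the threshold in the paxillin siRNA comparison kept their calls with the block, without culture 3, and after rescaling, and none changed sign in any alternative. Without cultures 10 and 11, 29 of them lost the call, and there with the block 3 did (Chac1, Klhl33, and Plxna4). With no filter 7 lost it, and with a pseudocount of 0.1, 2 did. The block changed no call of a named gene other than those given above. The causes were not tested, except that fewer samples or more genes were tested in some settings.

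Differences near 0 changed sign, among them abundant members of lists without a call, which as first fitted were 0.0047 for Dusp6, 0.025 for Stat2, 0.062 for Jun, -0.057 for Irf9, and 0.26 for C1qc. Pxn was at -0.013 without cultures 10 and 11, at -0.0054 in limma with the replicate block, at -0.055 with the block and without those cultures, at 0.037 over pairs, and at -0.011 to 0.11 with 1 sample left out. Snap25 was 0.49 without cultures 10 and 11, and 0.21 to 0.45 with 1 left out. Dusp6 was -0.027 after rescaling and -0.096 with the block of both groups, and Stat2 was -0.0067 after rescaling. Without cultures 10 and 11, Dlx2, Jun, and Stat2 were -0.056, -0.21, and -0.096, and -0.11, -0.25, and -0.036 with the block as well. In cultures 1, 2, 3, and 10 with the block, Jun was -0.15 and Stat2 -0.0076. With 1 sample left out, Dusp6 ranged from -0.12 to 0.20, Stat2 from -0.049 to 0.13, Jun from -0.044 to 0.21, Irf9 from -0.14 to 0.12, and C1qc from -0.010 to 0.47. Depth is unknown, so levels under 1 TPM have no stated error of counting.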

Other observations

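Other gene groups had few calls from DIV3 to DIV5 under paxillin siRNA without the block. Of 26 hypoxia and glycolysis genes tested, 2 were higher and none was lower (median log2 difference 0.16). Eno2, the neuronal enolase, was at 80.6, 90.3, 88.3, 65.5, and 55.6 TPM at DIV3 and between 99.6 and 212 TPM at DIV5, without overlap (1.03, limma adjusted p = 0.004, and 0.0207 without cultures 10 and 11). Bnip3, a mitochondrial receptor of mitophagy, was higher by 0.71 (adjusted p = 0.0318) and lost its call in 7 of the 11 fits that left out 1 sample. With the block, 6 of the list were higher and 1 was lower. Of 34 histone genes, H1f2 was higher (1.42, adjusted p = 0.00957) and H4c2 lower (-1.21, adjusted p = 0.0307, lost in 6 of those 11 fits), and the median was 0.10. The block called 2 higher and 1 lower, and without cultures 10 and 11 none was called (adjusted p of 0.0997 and 0.11). Both belong to clusters of similar genes whose transcripts mostly lack poly(A) tails, and the libraries were made from mRNA.

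None of 25 interneuron genes (median 0.26), 17 interferon-stimulated genes (median -0.15), or 10 neurotrophin ligand and receptor genes (median -0.08) passed the threshold in limma. The block called 1 interneuron gene higher and 1 lower, 1 neurotrophin gene higher, and no interferon-stimulated gene. None of the 13 mitochondrially encoded genes was among the genes used here, so their share of the RNA was not analysed.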
